A study of Rattus norvegicus with 20 samples.

Results

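Kinesins and dyneins are the motor proteins that walk along microtubules. The genes described here are those whose array probe sets carry exactly 1 symbol beginning with Kif followed by a digit or c, with Klc followed by a digit, or with Dync or Dynl. Symbols ending in -ps, for pseudogene, were left out (2 genes). Another 3 genes, Dynll1l, Dynll1l1 and Kif4b, are annotated as pseudogenes but fit the symbol rule and were kept, and of these only Dynll1l1 was bright enough to test. The brightest probe set, by its mean over all arrays, stood for each gene. This gave 68 genes on 70 probe sets, of 22093 genes with a single symbol: 43 kinesin heavy chain genes, 4 kinesin light chain genes and 21 dynein genes. Of these, 56 were bright enough to test (33, 4 and 19 of the 3 classes), among 15465 tested genes in all, and 12 lay in the dimmest 30% of genes.

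The animals were male rats, 2 months old, that had received a bilateral injection into the ventral hippocampus. The mimic rats received a synthetic miR-17-5p mimic and the control rats a scrambled sequence, so every group had undergone surgery and an injection. The dose was 200 pmol and the injected volume 1.5 µl in all groups. RNA was taken from the whole tissue homogenate or from synaptoneurosomes, a preparation enriched in pinched-off synaptic endings. With 2 fractions and 2 treatments there are 4 groups, each with 5 arrays. The labels do not tie an array to an animal or say how many animals an array holds, so p-values measure the spread between arrays.

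A conventional kinesin (kinesin-1) is built from a pair of heavy chains, which hold the motor domain, and a pair of light chains, which bind cargo. Most kinesins carry vesicles, mitochondria or RNA granules towards the growing end of the microtubule, outward along the axon, while cytoplasmic dynein carries cargo back towards the cell body. Cytoplasmic dynein 1 has heavy chains with the motor domain and intermediate, light intermediate and light chains that hold the complex together and bind adaptors. Some motor mRNAs are themselves known to be present in dendrites and axons.

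The injected mimic copies the mature microRNA below, which is shown because its seed, in capitals (bases 2 to 8 from the 5′ end), is the stretch by which a microRNA pairs with its targets. The sequence is from RefSeq, rat build GRCr8, chr15:98587861-98587883, plus strand.
rno-miR-17-5p: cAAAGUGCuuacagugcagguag

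Values are log2 expression levels, so that a difference of 1 is a doubling, and errors after ± are limma standard errors for 5 against 5 arrays. A gene is said to rise or fall where its Benjamini-Hochberg adjusted p over all tested genes was below 0.05. Levels of different genes are not compared, because each rests on its own probes. In bulk samples such as these, fewer cells of a type and less RNA per cell cannot be told apart.

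In all, 3 synaptoneurosome arrays, numbers 4 and 5 of the control rats and number 5 of the mimic rats, deviated together from the remaining 7 arrays of this fraction. On the leading component of deviations from the group means, which held 52.2% of the within-group variance, they scored 30.2, 45.1 and 53.0, against −29.4 to −6.9 for the others and −4.1 to 5.6 for homogenate. Differences between fractions are therefore also given without these 3 arrays, for the motor genes named below and for the lists of genes that work with them. All 7 neuron markers were above the limit for dim genes, and their mean level lay between 15.65 and 15.81 on homogenate arrays and between 15.21 and 15.79 on synaptoneurosome arrays. In synaptoneurosomes 2 of the 7 rose and 2 fell for control rats, whereas for mimic rats 1 rose and 4 fell. Endothelial markers all fell (5 of 5, median −2.33 in control and −2.40 in mimic rats), from a mean level between 8.48 and 8.93 in homogenate to between 6.22 and 6.73. Markers of mural cells, which wrap the vessels, fell in 4 of 5 cases in control and 5 of 5 in mimic rats (median −1.07 and −1.12), from a mean level between 8.42 and 9.32 to between 6.68 and 7.74. In both treatments 4 of the 6 astrocyte markers went up past the threshold, and their mean level went from between 12.21 and 12.58 to between 12.57 and 12.98. The microglial markers were higher in 3 of 5 cases in control rats and in 1 of 5 in mimic rats. Of 4 oligodendrocyte markers 1 fell in each treatment, and their mean level lay between 9.63 and 10.48 in homogenate and between 9.24 and 10.09 in synaptoneurosomes. Of 4 tested choroid plexus markers 1 fell in control rats and none passed in mimic rats. The mean level of this list, with the dim marker Kl included, lay between 5.07 and 5.45 in control rats. In mimic rats it lay between 5.12 and 8.15 in homogenate and between 5.22 and 8.35 in synaptoneurosomes. The lowest mimic arrays were thus within the range of control rats. The endothelial and mural counts were the same without the 3 arrays, and 4 neuron markers fell in each treatment, while 3 astrocyte and 2 microglial markers rose in mimic rats and 1 oligodendrocyte marker rose in each treatment. The part of these shifts in the motor results was not tested.

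Motor genes moved in both directions between fractions: most kinesin heavy chains that passed were higher in synaptoneurosomes, and most light chain and dynein genes that passed were lower. In control rats 23 of 56 passed, 10 higher and 13 lower in synaptoneurosomes, against a background of 39.8% of all tested genes (11.8% higher and 28.0% lower). In mimic rats 29 of 56 passed, 12 higher and 17 lower, against 41.7% (11.0% higher and 30.8% lower). The share of motor genes that passed was thus 41.1% in control rats, close to the background, and 51.8% in mimic rats, above it. The share that rose was 17.9% and 21.4%, above the background in both. The share that fell was 23.2% in control rats, below the background, and 30.4% in mimic rats, close to it. Since the genes were chosen with earlier results known, these shares are a description. Among the 33 kinesin heavy chains, the control rats had 10 that rose and 3 that fell, and the mimic rats 11 and 5. Of 4 light chains 2 fell and none rose in either treatment. For the 19 dynein genes, control rats had 8 that fell and 0 that rose, and mimic rats 10 and 1. Leaving out the pseudogene Dynll1l1, 7 and 9 of 18 dynein genes fell. Without the 3 arrays that stood apart the calls came to 26 in control rats, with 12 up and 14 down. In mimic rats they came to 31, with 15 up and 16 down. As shares of the motor genes these were 46.4% (21.4% up, 25.0% down) and 55.4% (26.8% up, 28.6% down). Of all tested genes 43.8% (14.8% up, 29.0% down) and 51.5% (16.1% up, 35.4% down) passed. In mimic rats the total share thus lay nearer the background than with all arrays. No call was then lost in control rats, and those of Kif3b and Kif17 were lost in mimic rats. Calls of Dync1h1, Kif13a and Kif19 were gained in both treatments, and that of Kif7 in mimic rats. The median difference over the 56 genes was −0.01 in control and 0.02 in mimic rats, beside −0.06 and −0.08 over all tested genes.

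Setting all array medians equal moved the median of all genes up by 0.16 in control and 0.22 in mimic rats, and quantile scaling moved it by 0.04 and 0.09. With equal medians the motor calls became 21 higher and 11 lower in control rats, and 27 higher and 11 lower in mimic rats. With quantile scaling they were 8 and 11, and 10 and 13. The shares of all tested genes that passed under these scalings are not given here, so these counts are not a result about motor genes. No gene that passed changed its direction under either scaling except Kif17 in mimic rats, which went from −0.20 to 0.02 with equal medians.

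The same 9 kinesins rose in both treatments, beside 7.41% of all tested genes that did so: Kif1a, Kif1b, Kif1c, Kif26b, Kif4a, Kif5a, Kif5b, Kif5c and Kifc2. The 13 genes that fell in both, beside 24.6% of all, were Dync1i1, Dync1i2, Dync1li1, Dync2li1, Dynll1, Dynll1l1, Dynll2, Dynlt3, Kif2a, Kif3a, Kif3c, Klc1 and Klc2. None passed in opposite directions. With only the arrays compared in the limma fit, the calls of Kif1c, Kif26b, Kif5a and Kifc2 ended in control rats. Their adjusted p was then 0.0871, 0.0982, 0.106 and 0.103, in that order. The call of Dynlt3 ended there too (adjusted p = 0.121). In mimic rats none of the genes listed here lost its call in that fit. In 5 genes of control rats and 6 of mimic rats the synaptoneurosome arrays all lay above the homogenate arrays (6.1% and 7.1% of all genes). In 8 and 16 genes, respectively, they all lay below (17.5% and 25.4%). Groups without overlap made up 23.6% and 32.5% of all genes in either direction.

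**Figure D1:**
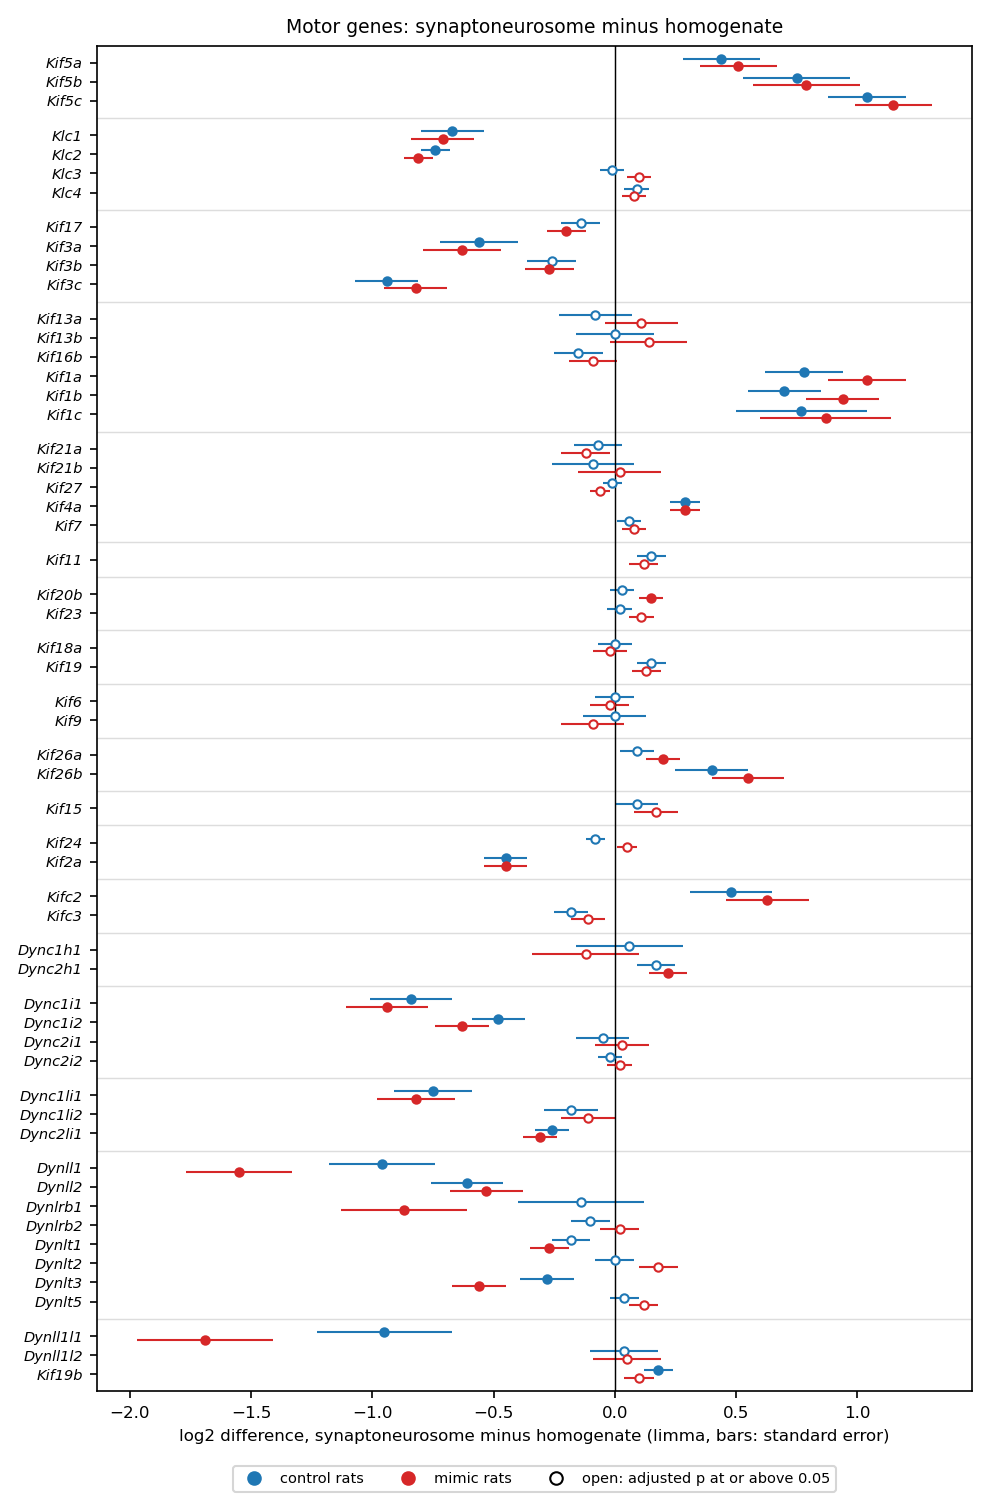
Log2 difference, synaptoneurosome minus homogenate, for each of the 56 tested motor genes, grouped by kinesin family and dynein subunit; points are limma estimates in control rats (blue) and mimic rats (red), bars are standard errors, and open points have an adjusted p at or above 0.05. Kif5a, Kif5b, Kif5c, Kif1a, Kif1b and Kif1c lie right of 0, and Klc1, Klc2, Dync1i1, Dync1li1 and Dynll1 lie left of it.

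The 3 heavy chains of kinesin-1 all rose in synaptoneurosomes. Kif5c, a neuronal heavy chain, showed the largest rise of any motor gene with all arrays. In homogenate it stood at 15.45, 15.19, 15.22, 15.28 and 15.60 on arrays 1 to 5 of control rats and at 15.30, 15.37, 15.33, 15.35 and 15.61 on arrays 1 to 5 of mimic rats, and later values follow this order. In synaptoneurosomes it stood at 16.76, 16.36, 16.82, 15.90 and 16.12 in control rats and 16.71, 16.50, 16.72, 16.67 and 16.12 in mimic rats. The 2 fractions did not overlap in either treatment, and the lowest synaptoneurosome arrays were those that stood apart. The difference was 1.04 ± 0.16 in control rats (2.06-fold, adjusted p = 4.71e-05) and 1.15 ± 0.16 in mimic rats (2.22-fold, adjusted p = 1.4e-05). Without the 3 arrays it was 1.30 and 1.26, and in control rats that of Kif1c, a kinesin-3, was then as large (1.32).

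Kif5b, the heavy chain found in most tissues, stood at 13.30, 13.64, 13.61, 13.29 and 13.32 in homogenate of control rats and at 13.51, 13.40, 13.49, 13.44 and 13.24 in that of mimic rats. In synaptoneurosomes its levels were 14.34, 14.77, 14.67, 13.48 and 13.63 in control rats and 14.53, 14.40, 14.38, 14.22 and 13.51 in mimic rats. The 3 arrays that stood apart lay at the homogenate level, and the other 7 lay above every homogenate array. Kif5b rose by 0.75 ± 0.22 (adjusted p = 0.0127) and 0.79 ± 0.22 (adjusted p = 0.00788), or by 1.16 and 0.97 without the 3 arrays. With quantile scaling the difference in control rats was 0.56 and no longer passed (adjusted p = 0.121).

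Kif5a, another neuronal heavy chain, stood at 16.53, 16.50, 16.37, 16.20 and 16.67 in homogenate of control rats and at 16.43, 16.32, 16.41, 16.39 and 16.67 in mimic rats. In synaptoneurosomes it was at 17.33, 17.14, 17.13, 16.30 and 16.56 and at 17.11, 17.00, 16.95, 17.11 and 16.58, respectively. As with Kif5b, the arrays that stood apart overlapped homogenate and the other 7 did not. The rise was the smallest of the 3 heavy chains, 0.44 ± 0.16 in control rats (adjusted p = 0.039) and 0.51 ± 0.16 in mimic rats (adjusted p = 0.0174), and 0.75 and 0.60 without the 3 arrays. In control rats the call ended when any of homogenate control 1 to 4 or synaptoneurosome control 1 to 3 was left out (adjusted p up to 0.106), and with quantile scaling it ended in both treatments (0.28 and 0.45).

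Of the light chains that partner these heavy chains, Klc1 and Klc2 fell. Klc1, a light chain enriched in neurons, stood at 13.88, 13.56, 13.45, 13.72 and 14.09 in homogenate of control rats and at 13.73, 13.93, 13.59, 13.69 and 13.83 in mimic rats. In synaptoneurosomes it was at 13.35, 13.15, 12.93, 12.82 and 13.11 in control rats and 13.20, 13.39, 13.03, 12.83 and 12.75 in mimic rats. No synaptoneurosome array reached a homogenate array of its treatment, and the arrays that stood apart were not higher than the rest. Klc1 fell, by a log2 difference of −0.67 ± 0.13 and −0.71 ± 0.13 (adjusted p = 0.000722 and 0.000335), with −0.60 and −0.64 without the 3 arrays.

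Klc2, a widely expressed light chain, had the smallest adjusted p of all motor genes with all arrays. Its homogenate levels were 11.18, 11.37, 11.25, 11.24 and 11.37 in control and 11.40, 11.41, 11.38, 11.28 and 11.59 in mimic rats, and its synaptoneurosome levels 10.50, 10.55, 10.51, 10.59 and 10.58 and 10.73, 10.71, 10.55, 10.51 and 10.53. The fractions were separated in both treatments, and the synaptoneurosome arrays spread only from 10.50 to 10.73. The difference was −0.74 ± 0.06 (adjusted p = 1.65e-07) and −0.81 ± 0.06 (adjusted p = 4.32e-08), or −0.76 and −0.79 without the 3 arrays. Klc3 and Klc4, both dim, did not pass: Klc3 differed by −0.01 ± 0.05 and 0.10 ± 0.05, and Klc4 by 0.09 ± 0.05 and 0.08 ± 0.05 (0.00, 0.10, 0.12 and 0.09 without the 3 arrays, in the same order).

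**Figure D2:**
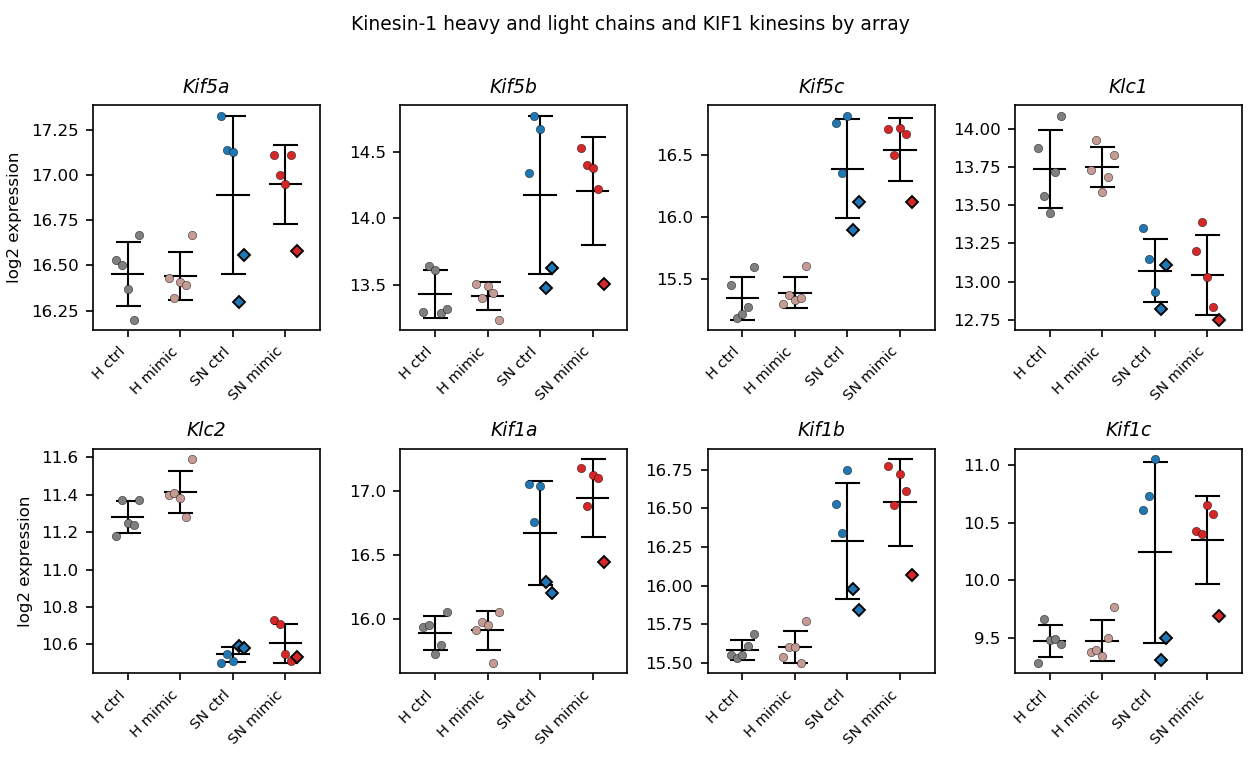
Log2 expression of the 3 kinesin-1 heavy chains, Klc1, Klc2 and 3 KIF1 genes on each array of homogenate (H) and synaptoneurosomes (SN) in control (ctrl) and mimic rats; horizontal lines are means, bars are SD (n = 5), and diamonds mark the 3 arrays that stood apart. For Kif5b and Kif1c the diamonds sit at the homogenate level while the other synaptoneurosome arrays sit above it; Klc1 and Klc2 sit lower in every synaptoneurosome array.

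Differences taken between subunits on the same array are free of any shift that moves all genes of an array equally, but not of a scaling that acts differently at different levels. Their size carries no meaning, since probes differ between genes, but their shift between fractions does. Kif5c minus Klc1 went from between 1.51 and 1.77 in homogenate to between 3.01 and 3.89 in synaptoneurosomes of control rats, a shift of 1.71. In mimic rats it went from between 1.44 and 1.78 to between 3.11 and 3.84, a shift of 1.87. Kif5a minus Klc1 shifted by 1.11 and 1.22, Kif5b minus Klc1 by 1.41 and 1.51, and Kif5c minus Klc2 by 1.78 and 1.96. With quantile scaling these 4 shifts lay between 1.08 and 1.68 in control rats and between 1.20 and 1.85 in mimic rats. The fractions did not overlap in any of these differences in either treatment, with the arrays that stood apart included and with either scaling. For Kif5c minus Klc1 and Kif5c minus Klc2 this had to be so. Kif5c alone lay above homogenate, and Klc1 and Klc2 alone lay below it, without overlap. Each shift is also the gap between the fraction differences of its 2 genes, so it is not separate evidence. The heavy chains also moved unequally, since Kif5c minus Kif5a shifted by 0.61 and 0.65, again with no overlap.

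**Figure D3:**
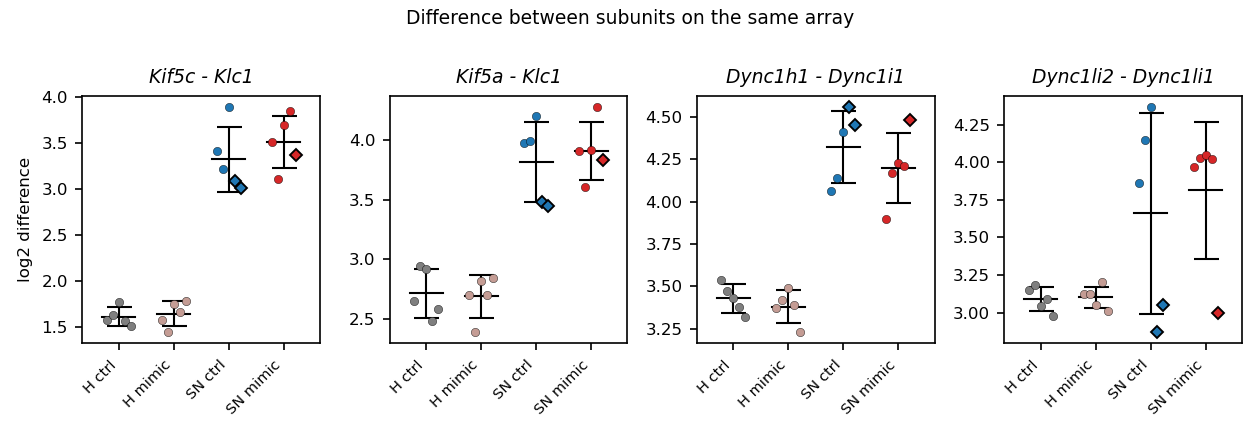
Log2 difference between 2 subunits on the same array, for Kif5c minus Klc1, Kif5a minus Klc1, Dync1h1 minus Dync1i1 and Dync1li2 minus Dync1li1; lines are means, bars are SD (n = 5), and diamonds mark the 3 arrays that stood apart. In the first 3 panels every synaptoneurosome array lies above every homogenate array, and in the last the fractions overlap.

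Among the 6 tested kinesin-3 genes, 3 rose in both treatments and the other 3 passed in neither. Kif1a, which carries synaptic vesicle precursors, stood at 15.93, 15.95, 15.72, 15.79 and 16.05 in homogenate of control rats and at 15.91, 15.97, 15.95, 15.65 and 16.05 in mimic rats. Its synaptoneurosome levels were 17.06, 16.76, 17.04, 16.29 and 16.20 in control and 17.18, 16.88, 17.13, 17.10 and 16.44 in mimic rats. The fractions did not overlap, and the arrays that stood apart were again the lowest of the synaptoneurosome arrays. Kif1a rose by 0.78 ± 0.16 (adjusted p = 0.00108) and 1.04 ± 0.16 (adjusted p = 6.6e-05), and by 1.07 and 1.17 without the 3 arrays.

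Kif1b, whose isoforms carry mitochondria and synaptic vesicle precursors, stood between 15.50 and 15.77 over all homogenate arrays. In synaptoneurosomes it was at 16.53, 16.34, 16.75, 15.98 and 15.84 in control and 16.77, 16.52, 16.72, 16.61 and 16.07 in mimic rats. It rose by 0.70 ± 0.15 (adjusted p = 0.00103) and 0.94 ± 0.15 (adjusted p = 6.09e-05), with no overlap of the fractions, and by 0.95 and 1.05 without the 3 arrays. Kif1c, a carrier of dense core vesicles and of some mRNAs, was at 9.28, 9.66, 9.48, 9.49 and 9.45 in homogenate of control rats and at 9.38, 9.39, 9.34, 9.50 and 9.77 in mimic rats.

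In synaptoneurosomes Kif1c was at 10.61, 10.73, 11.05, 9.31 and 9.50 in control and 10.43, 10.40, 10.65, 10.57 and 9.69 in mimic rats. The 3 arrays that stood apart lay within the range of homogenate and the other 7 at 10.40 or above, against a highest homogenate array of 9.77. The difference was 0.77 ± 0.27 (adjusted p = 0.0285) and 0.87 ± 0.27 (adjusted p = 0.0132), against 1.32 and 1.04 without the 3 arrays. In control rats the call ended without homogenate control 1 or any of synaptoneurosome control 1 to 3 (adjusted p up to 0.0842). Kif13a, Kif13b and Kif16b, which carry endosomal and membrane cargo, did not pass, with differences of −0.08 ± 0.15, 0.00 ± 0.16 and −0.15 ± 0.10 in control rats and 0.11 ± 0.15, 0.14 ± 0.16 and −0.09 ± 0.10 in mimic rats. Without the 3 arrays Kif13a passed as higher in both (0.19 and 0.24, adjusted p = 0.049 and 0.00732), so its sign in control rats turned. Kif13b was then at 0.24 and 0.20 and Kif16b at 0.01 and −0.01, and neither passed.

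Of 4 kinesin-2 genes 2 fell in control and 4 in mimic rats. Kif3a forms heterodimers with Kif3b or Kif3c in axonal and ciliary transport. Kif3c stood at 13.45, 13.17, 13.29, 13.24 and 13.62 in homogenate of control rats and at 13.41, 13.51, 13.42, 13.21 and 13.54 in mimic rats. In synaptoneurosomes it was at 12.72, 12.30, 12.50, 12.36 and 12.19 and 12.88, 12.83, 12.65, 12.34 and 12.27, respectively, below all homogenate arrays. It fell, by a log2 difference of −0.94 ± 0.13 (adjusted p = 1.54e-05) and −0.82 ± 0.13 (adjusted p = 4.7e-05), and of −0.85 and −0.74 without the 3 arrays.

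Kif3a was between 11.79 and 11.97 on the homogenate arrays and at 10.96, 11.01, 11.05, 11.82 and 11.70 and 11.45, 11.26, 11.18, 10.86 and 11.66 in synaptoneurosomes of control and mimic rats. Here the arrays that stood apart were among the highest of the fraction, and 1 of them lay within the range of homogenate. Kif3a fell, by a log2 difference of −0.56 ± 0.16 (adjusted p = 0.00893) and −0.63 ± 0.16 (adjusted p = 0.00338), or of −0.86 and −0.73 without the 3 arrays. Kif1a minus Kif3a on the same array shifted by 1.34 and 1.67 with no overlap. In mimic rats this had to be so, since each gene alone was already separated, in opposite directions.

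Kif3b differed by −0.26 ± 0.10 in control rats (adjusted p = 0.0594) and fell, by a log2 difference of −0.27 ± 0.10 in mimic rats (adjusted p = 0.0454). With the replicate number, which may pair the fractions, as a block, Kif3b passed in control rats as well (adjusted p = 0.0276). Kif17, a dendritic motor known for carrying NMDA receptors, differed by −0.14 ± 0.08 (adjusted p = 0.146) and fell, by a log2 difference of −0.20 ± 0.08 (adjusted p = 0.0363). In mimic rats both calls ended without the 3 arrays, at −0.26 and −0.20 (adjusted p = 0.0597 and 0.0529), while in control rats the values were −0.24 and −0.12. Both scalings ended them too. Kif3b in mimic rats was −0.05 with quantile scaling and −0.05 with equal array medians (adjusted p = 0.798 and 0.765), and in control rats −0.10 and −0.09. Kif17 in mimic rats was −0.04 with quantile scaling (adjusted p = 0.749).

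Kif2a, a kinesin-13 that depolymerises microtubules, fell, by a log2 difference of −0.45 ± 0.09 (adjusted p = 0.000478) and −0.45 ± 0.09 (adjusted p = 0.00044), with no overlap of the fractions, or −0.51 and −0.44 without the 3 arrays. With equal array medians it was −0.29 in control rats. The value in mimic rats was −0.22 and did not pass with equal array medians (adjusted p = 0.0653).

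Of the other kinesins, Kifc2, a kinesin-14 of neurons, rose by 0.48 ± 0.17 and 0.63 ± 0.17 (adjusted p = 0.0377 and 0.00745), or by 0.71 and 0.72 without the 3 arrays. In control rats this call ended without any of homogenate control 2, 3 or 4 or synaptoneurosome control 1 or 3 (down to 0.30, adjusted p up to 0.103). Kif26b, an atypical kinesin of the kinesin-11 family, rose by 0.40 ± 0.15 and 0.55 ± 0.15 (adjusted p = 0.0405 and 0.00618) on its brighter probe set, or by 0.62 and 0.63 without the 3 arrays. Its second, dim probe set differed by 0.03 and −0.10, and with the mean over both probe sets neither call held. In control rats the call also ended with the replicate number as a block (adjusted p = 0.0596) and without any of homogenate control 1, 2, 4 or 5 or synaptoneurosome control 1 to 3 (down to 0.25, adjusted p up to 0.115). Kif21a and Kif21b, kinesin-4 motors of axons and dendrites, did not pass, with −0.07 ± 0.10 and −0.09 ± 0.17 in control rats and −0.12 ± 0.10 and 0.02 ± 0.17 in mimic rats. Leaving out the 3 arrays put Kif21a at −0.15 and −0.14 and Kif21b at 0.18 and 0.14, and neither passed.

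Kinesins of cell division were dim. Of 13 such genes 6 could be tested, and Kif4a, which binds chromosomes in mitosis, rose in both treatments. It was between 5.02 and 5.24 in homogenate and between 5.33 and 5.60 in synaptoneurosomes, near the limit for dim genes of 4.97, a difference of 0.29 ± 0.06 and 0.29 ± 0.06 (adjusted p = 0.0013 and 0.00134), or 0.35 and 0.32 without the 3 arrays. With equal array medians it was 0.45 and 0.51. Kif20b, which acts in cytokinesis, rose by 0.15 ± 0.05 in mimic rats (adjusted p = 0.027), but not with the replicate number as a block (adjusted p = 0.061) or with quantile scaling (0.07, adjusted p = 0.255); without the 3 arrays it was 0.16. Among 7 markers of dividing cells, Cdk1, Aurkb and Birc5 were under that limit, and the mean level of the list stayed between 5.04 and 5.32 on all arrays. None of 6 ciliary kinesins passed in either treatment (smallest adjusted p = 0.0558 and 0.088, 1 of 6 at an unadjusted p below 0.05 in each, beside 48.9% and 49.6% of all genes). This list leaves out the kinesin-2 genes, which also serve cilia and are given above. With the 3 arrays left out, Kif19 passed as higher in both treatments (0.18 and 0.15, adjusted p = 0.0398 and 0.0485) and Kif7, a regulator of hedgehog signalling in cilia, in mimic rats (0.13, adjusted p = 0.0195).

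Kif26a rose by 0.20 ± 0.07 in mimic rats (adjusted p = 0.0375; 0.0517 with the block), and was at 0.24 without the 3 arrays, 0.31 with quantile scaling and 0.42 with equal array medians. Kif19b rose by 0.18 ± 0.06 in control rats (adjusted p = 0.0287), and by 0.16 without the 3 arrays. With quantile scaling it was at 0.12 and did not pass (adjusted p = 0.12), and with equal array medians at 0.34.

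Dync1h1, the heavy chain of cytoplasmic dynein 1, did not pass, and its synaptoneurosome arrays lay on both sides of homogenate. In homogenate it stood at 14.54, 14.57, 14.44, 14.52 and 14.56 in control rats and at 14.47, 14.57, 14.55, 14.37 and 14.58 in mimic rats. Its synaptoneurosome levels were 14.02, 14.20, 14.26, 15.36 and 15.08 in control and 14.28, 14.30, 14.25, 13.95 and 15.14 in mimic rats. The 3 arrays that stood apart were above all homogenate arrays and the other 7 below all of them. The difference was 0.06 ± 0.22 (adjusted p = 0.854) in control and −0.12 ± 0.22 (adjusted p = 0.685) in mimic rats. Without the 3 arrays Dync1h1 passed as lower in both, at −0.37 (adjusted p = 0.00182) and −0.31 (adjusted p = 0.00243), so its direction in control rats depended on them. With quantile scaling and all arrays its difference was −0.24 and −0.27 and did not pass (adjusted p = 0.25 and 0.206).

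The intermediate chains of dynein 1, which link the motor to dynactin, fell. Dync1i1, the neuronal form, stood at 11.00, 11.10, 11.01, 11.14 and 11.24 in homogenate of control rats and at 11.10, 11.15, 11.06, 10.98 and 11.35 in mimic rats. In synaptoneurosomes it was at 9.96, 10.06, 9.85, 10.80 and 10.63 in control and 10.38, 10.13, 10.02, 9.74 and 10.66 in mimic rats. The arrays that stood apart were the highest of the fraction but still below homogenate. Dync1i1 fell, by a log2 difference of −0.84 ± 0.17 (adjusted p = 0.000942) and −0.94 ± 0.17 (adjusted p = 0.000281), and of −1.14 and −1.06 without the 3 arrays. Dync1i2, the widely expressed form, fell, by a log2 difference of −0.48 ± 0.11 (adjusted p = 0.0028) and −0.63 ± 0.11 (adjusted p = 0.000256), also with no overlap, or −0.65 and −0.69 without the 3 arrays. With equal array medians the value in mimic rats was −0.40.

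The 2 light intermediate chains of dynein 1, which bind cargo adaptors, differed from each other. Dync1li1 stood between 9.51 and 9.80 over the homogenate arrays and at 8.78, 8.53, 8.46, 9.33 and 9.24 and 8.94, 8.61, 8.62, 8.58 and 9.27 in synaptoneurosomes of control and mimic rats. It fell, by a log2 difference of −0.75 ± 0.16 (adjusted p = 0.00102) and −0.82 ± 0.16 (adjusted p = 0.000389), with the fractions apart, or −1.03 and −0.94 without the 3 arrays. Dync1li2 stood between 12.62 and 12.80 in homogenate and at 12.64, 12.68, 12.83, 12.20 and 12.29 and 12.91, 12.64, 12.67, 12.60 and 12.27 in synaptoneurosomes. The 3 arrays that stood apart were below homogenate and the others around it, and the difference did not pass (−0.18 ± 0.11 and −0.11 ± 0.11, adjusted p = 0.221 and 0.474; 0.01 and −0.02 without the 3 arrays). Dync1h1 minus Dync1i1 on the same array shifted by 0.90 and 0.82, and Dync1h1 minus Dync1li1 by 0.81 and 0.70, with no overlap of the fractions in either. These shifts did depend on the scaling: with quantile scaling they were 0.56 and 0.55 for Dync1i1 and 0.42 and 0.37 for Dync1li1, and for Dync1li1 the fractions then overlapped in control rats. Dync1li2 minus Dync1li1 shifted by 0.57 and 0.71, and there the fractions overlapped. It shifted by 1.04 and 0.92, with no overlap, without the 3 arrays.

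**Figure D4:**
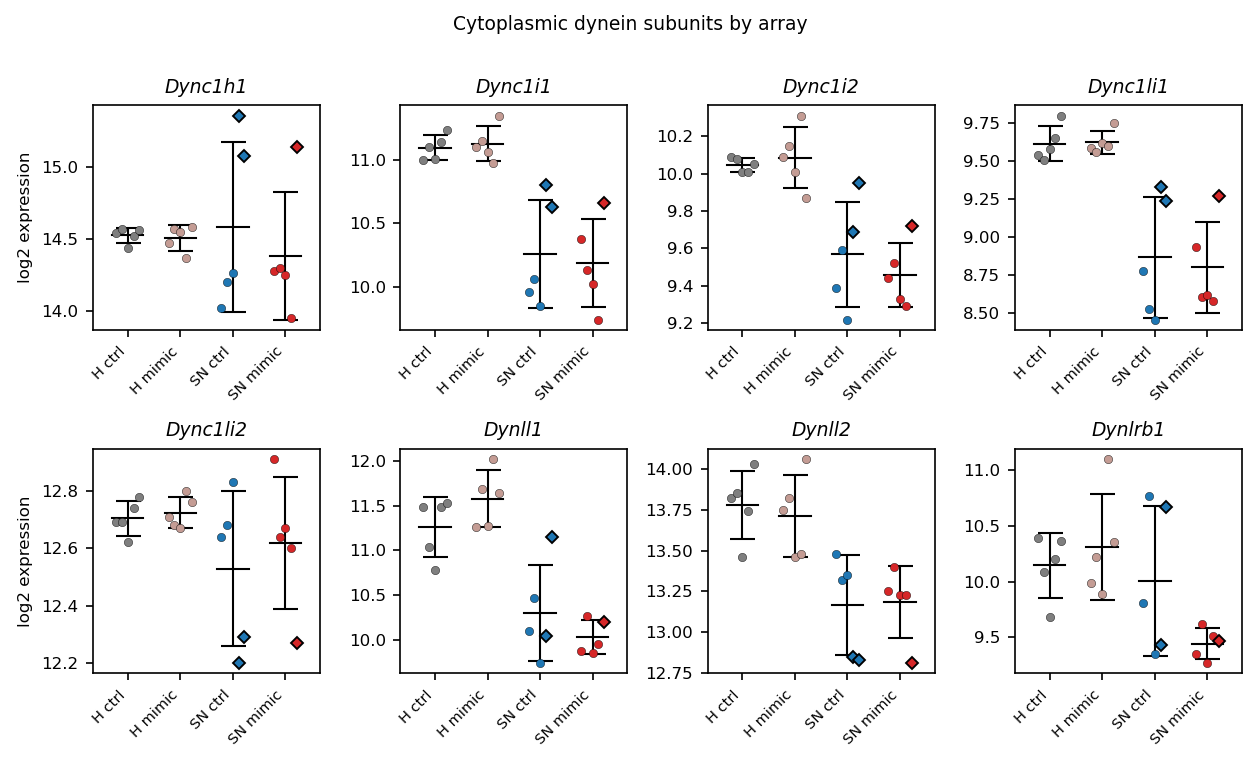
Log2 expression of 8 cytoplasmic dynein subunits on each array of homogenate (H) and synaptoneurosomes (SN) in control (ctrl) and mimic rats; horizontal lines are means, bars are SD (n = 5), and diamonds mark the 3 arrays that stood apart. For Dync1h1 the diamonds, at 15.08 to 15.36, lie above homogenate and the other synaptoneurosome arrays, at 13.95 to 14.30, below it; Dync1i1, Dync1i2 and Dync1li1 lie lower in every synaptoneurosome array.

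Of 8 tested light chains 3 fell in control and 5 in mimic rats, and none rose. Dynll1, which is shared by dynein and other complexes, stood at 11.49, 11.04, 10.78, 11.48 and 11.53 in homogenate of control rats and at 11.26, 11.69, 11.27, 12.02 and 11.64 in mimic rats. In synaptoneurosomes it was at 10.10, 10.47, 9.74, 10.04 and 11.15 in control and 9.88, 10.27, 9.85, 9.95 and 10.20 in mimic rats. The fractions overlapped in control rats, through synaptoneurosome control 5 and homogenate control 2 and 3, and did not overlap in mimic rats. Dynll1 fell, by a log2 difference of −0.96 ± 0.22 (adjusted p = 0.00205) and −1.55 ± 0.22 (adjusted p = 2.3e-05), or −1.16 and −1.59 without the 3 arrays. Dynll1l1, a Dynll1-like gene annotated as a pseudogene and not counted among the light chains, fell, by a log2 difference of −0.95 ± 0.28 and −1.69 ± 0.28 (adjusted p = 0.0116 and 9.96e-05), or −1.23 and −1.78 without the 3 arrays. Probes of such near copies can bind the same transcript. Whether they do so here was not tested, so Dynll1 and Dynll1l1 are not treated as independent and either value is uncertain.

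Dynll2, the paralog that also binds myosin V, fell, by a log2 difference of −0.61 ± 0.15 (adjusted p = 0.00349) and −0.53 ± 0.15 (adjusted p = 0.00841), or −0.40 and −0.44 without the 3 arrays. With equal array medians the value in mimic rats was −0.31 and did not pass (adjusted p = 0.108). Dynlrb1, a roadblock light chain, stood at 10.39, 10.09, 9.68, 10.20 and 10.37 in homogenate of control rats and at 9.99, 10.22, 9.89, 11.10 and 10.36 in mimic rats. Its synaptoneurosome levels were 9.81, 10.77, 9.35, 9.43 and 10.67 and 9.35, 9.62, 9.27, 9.51 and 9.47. In control rats synaptoneurosome arrays 2 and 5 lay above all homogenate arrays and the difference did not pass (−0.14 ± 0.26, adjusted p = 0.694). In mimic rats all synaptoneurosome arrays lay below homogenate, and Dynlrb1 fell, by a log2 difference of −0.87 ± 0.26 (adjusted p = 0.0126). The values were −0.17 and −0.87 without the 3 arrays.

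The light chain Dynlt3 fell, by a log2 difference of −0.28 ± 0.11 (adjusted p = 0.0433) and −0.56 ± 0.11 (adjusted p = 0.000361), or −0.31 and −0.53 without the 3 arrays. Neither scaling kept the call in control rats (−0.24 with quantile scaling and −0.12 with equal array medians, adjusted p = 0.0609 and 0.323), and in mimic rats the value with equal medians was −0.34. Dynlt1 differed by −0.18 ± 0.08 in control rats (adjusted p = 0.0638, and 0.022 with the replicate number as a block) and fell, by a log2 difference of −0.27 ± 0.08 in mimic rats (adjusted p = 0.00769), or −0.08 and −0.25 without the 3 arrays. Its call in mimic rats also ended with quantile scaling (−0.15, adjusted p = 0.134) and with equal array medians (−0.05, adjusted p = 0.607).

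Of the dynein 2 genes, which serve transport inside cilia, Dync2li1 fell, by a log2 difference of −0.26 ± 0.07 and −0.31 ± 0.07 (adjusted p = 0.00859 and 0.00201), or −0.35 and −0.35 without the 3 arrays. Neither scaling kept these calls (−0.16 and −0.17 with quantile scaling, −0.10 and −0.09 with equal medians). The heavy chain Dync2h1 differed by 0.17 ± 0.08 and rose by 0.22 ± 0.08 in mimic rats (adjusted p = 0.0398), but not with the block (adjusted p = 0.0608); its second probe set gave 0.24 in both. It was at 0.10 and 0.21 without the 3 arrays, and with quantile scaling it passed in both, at 0.29 and 0.42.

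Some small differences lost their call when certain single arrays were left out. In control rats the call of Dynlt3 ended without homogenate control 3, 4 or 5, synaptoneurosome control 1, 3 or 4, homogenate mimic 2 or 5, or synaptoneurosome mimic 2 (adjusted p up to 0.132). That of Kif19b ended without homogenate control 2, 4 or 5 or synaptoneurosome control 4 (up to 0.0832). In mimic rats Kif3b lost its call without homogenate mimic 1, 2, 3 or 5, synaptoneurosome mimic 4 or 5, homogenate control 1 or 4, or synaptoneurosome control 1 (up to 0.143). Kif17 lost it without homogenate mimic 1, 3 or 5 or any of synaptoneurosome mimic 2 to 5 (up to 0.107), and Dync2h1 without homogenate mimic 1, 4 or 5 or synaptoneurosome mimic 1, 2, 3 or 5 (up to 0.114). For Kif26a the arrays were homogenate mimic 1 to 3 and synaptoneurosome mimic 2 to 4 (up to 0.11), and for Kif20b homogenate mimic 2 and 4 and synaptoneurosome mimic 2 and 4 (up to 0.0813). Other calls in mimic rats held without any 1 array.

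Genes that work with these motors were described from lists chosen for their roles. Their counts are to be read against the share of all tested genes, 11.8% higher and 28.0% lower in control rats and 11.0% and 30.8% in mimic rats. Of 12 dynactin genes, the cofactor of dynein, 11 fell in each treatment and none rose, with a median of −0.50 in control and −0.74 in mimic rats, beside −0.06 and −0.08 over all genes. Dctn2, the subunit also called dynamitin, fell by 1.01 and 1.04. The 14 dynein regulators and adaptors split into 1 higher and 5 lower in control rats and 2 higher and 5 lower in mimic rats, near that share. Pafah1b1, the LIS1 gene, fell by 0.52 and 0.51, while the adaptor gene Bicdl1 rose by 0.60 and 0.76, or by 1.04 and 0.95 without the 3 arrays. The 15 tested kinesin cargo adaptors gave 4 higher and 6 lower genes in control rats, and 5 and 6 in mimic rats. Trak2, which links mitochondria to microtubule motors, rose by 0.79 and 0.98, or by 1.36 and 1.13 without the 3 arrays, whereas Kifap3, the accessory subunit of kinesin-2, fell by 0.62 and 0.77 like Kif3a and Kif3c, and by 0.97 and 0.95 without the 3 arrays. Of 14 tested microtubule-associated proteins 7 fell and 1 rose in each treatment. Map6 rose by 0.60 and 0.57, and Mapt, which encodes tau, fell by 0.55 and 0.67. Axonemal dyneins, which drive beating cilia, fell in 2 of 14 cases in each treatment, below that share, and rose in none. When the 3 arrays were left out, 14.8% of all tested genes were higher and 29.0% lower in control rats, and 16.1% and 35.4% in mimic rats. Beside these shares, all 12 dynactin genes fell in control rats and 11 in mimic rats, and 4 and 5 of the dynein regulators fell. In each treatment 5 cargo adaptors rose while 7 and 6 fell, and 3 microtubule-associated proteins rose and 8 fell. Of the axonemal dyneins 1 rose in each while 1 and 2 fell. Of 8 tested markers of ciliated ependyma, a list that shares genes with the axonemal dyneins, 2 fell and none rose. The mean level of the list, with the dim marker Spag6 included, lay between 5.71 and 6.02 on all arrays.

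The mimic was not followed by a change that passed in any motor gene. In homogenate 0 of 56 passed by limma, beside 0.0% of all tested genes, and 1 of 56 had an unadjusted p below 0.05, beside 1.73%. In synaptoneurosomes 0 passed, beside 0.0%, and 3 had an unadjusted p below 0.05, beside 3.5%. The groups overlapped in all 56 genes in both fractions, beside 0.647% and 0.317% of all genes without overlap. The differences between mimic and control ranged from −0.09 to 0.39 in homogenate and from −0.56 to 0.28 in synaptoneurosomes.

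Dynlt3 had the smallest unadjusted p in homogenate. It stood at 10.90, 10.79, 10.98, 11.15 and 11.40 in control and 11.45, 11.36, 11.15, 11.41 and 11.38 in mimic rats, which overlap, a difference of 0.31 ± 0.11 (unadjusted p = 0.00927, adjusted p = 1). Klc2 and Kif23, a kinesin of cytokinesis, followed with 0.13 ± 0.06 and −0.09 ± 0.05. In synaptoneurosomes the smallest unadjusted p belonged to Kif24, a centriolar kinesin, with 0.12 ± 0.04 (unadjusted p = 0.0151), then Kif26a with 0.16 ± 0.07 (0.0387) and Dynlrb1 with −0.56 ± 0.26 (0.0461), each with an adjusted p of 0.933. Among the kinesin-1 heavy chains the difference in synaptoneurosomes was 0.06 ± 0.16 for Kif5a, 0.03 ± 0.22 for Kif5b and 0.15 ± 0.16 for Kif5c. With 5 arrays in a group and adjustment over all tested genes, even differences as large against their errors as those of Dynlt3 and Kif24 did not pass. Changes of that size against their errors, or smaller, can therefore have been missed.

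The interaction of treatment and fraction, that is, the change in the fraction effect from control to mimic rats, passed in 0 of 56 genes by limma (0.0% of all genes), and 0 had an unadjusted p below 0.05, beside 1.57%. Kif24 (0.13 ± 0.06), Dynlrb1 (−0.73 ± 0.37) and Dynll1l1 (−0.74 ± 0.39) had the smallest unadjusted p, at 0.0581, 0.0654 and 0.0751, each with an adjusted p of 0.998. The 8 genes that passed between fractions in 1 treatment only are therefore not shown to differ between treatments.

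**Figure D5:**
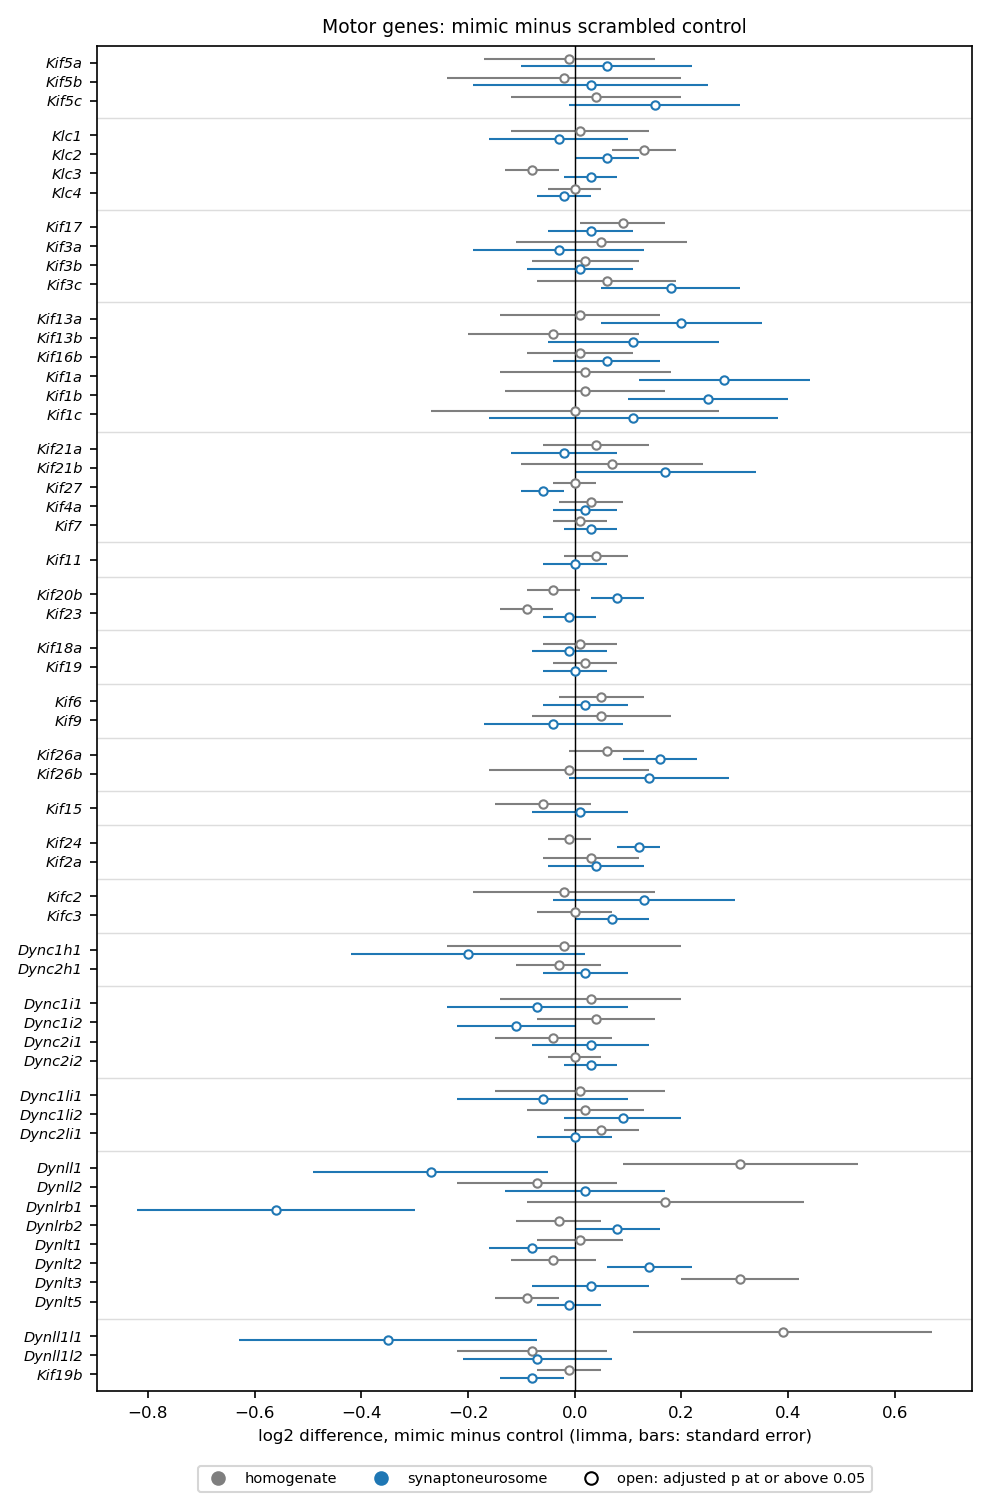
Log2 difference, mimic minus scrambled control, for each of the 56 tested motor genes in homogenate (grey) and synaptoneurosomes (blue), grouped as in the plot of fraction differences; points are limma estimates and bars are standard errors. All points are open, since no gene had an adjusted p below 0.05, and the values lie between −0.56 and 0.39.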

How the data were processed

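Expression was measured on 20 arrays of rat ventral hippocampus. The deposited table holds log2 expression values, 1 column per array, made by the authors with RMA and the Transcriptome Analysis Console; the submitters' processing notes name both, and their versions are not stated there. This method equalises array distributions and compresses changes of dim transcripts. Values were used as deposited (68842 probe sets, array medians 5.11 to 5.26). Symbols are those of the platform's annotation and may be outdated: 23446 probe sets had 1 symbol, 505 several, and 44891 are unnamed here. Dynlt2b shares a probe set with another gene and is not included.

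Groups and replicate numbers came from the sample titles. The lowest 30% of genes by mean over all arrays (under 4.97) were left out. limma 3.58.1 in R 4.3.3 fitted a mean for each of the 4 groups, with two-sided tests in 5 comparisons and Benjamini-Hochberg adjustment over 15465 genes; a gene passed at an adjusted p below 0.05. Spread is pooled over groups although synaptoneurosome arrays varied more, so errors can be too large in homogenate and too small in synaptoneurosomes. The fit was tested on simulated data with independent noise and the same spread in all groups. That test does not cover arrays that deviate together or a larger spread in synaptoneurosomes. Tables and plots used Python 3.11.15, numpy 2.4.6, pandas 2.3.3 and matplotlib 3.10.9.

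Deviations of same-numbered homogenate and synaptoneurosome arrays correlated in all 10 pairs (r across genes 0.102 to 0.476, against −0.268 to 0.17 for other pairs). The ranges overlap and no label states a pairing, so the numbers were treated as possible pairs of the fractions, in an alternative only. Between treatments same-numbered arrays ranged from −0.305 to 0.828 (median 0.348), against −0.754 to 0.744 (median −0.03) for other pairs. These ranges overlap, and whether the numbers mark anything shared between treatments was not tested. Alternatives were the filter, quantile scaling, equal array medians, an intensity trend, array weights, the mean over probe sets, leaving out arrays, fits of only the arrays compared, and the replicate number as a block.

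The genes, lists and tests were chosen with earlier results of these data known. Individual values cover, in each comparison between fractions, the 10 passing genes with the largest difference and a set of transport motors whatever their values, and in each comparison of treatments the 3 smallest p-values; other genes are named where they passed or complete a family, at most 4 per list of other genes. The number of arrays limits the precision.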

Additional observations from a re-analysis of the deposited data

Results flagged for a closer look

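Values on single arrays were screened for a gap to the nearest other array that is large against the range of its group of 5 (Dixon's test, critical value 0.71). Chance passes about 1 in 20 groups, and 5 of 112 groups (28 genes in 4 groups) passed. Dynll1l1 was at 14.16 on homogenate mimic 4, against 13.08 to 13.38 on the other 4 arrays of its group. On the same array Kif2a was low, at 11.67 against 11.88 to 11.96. Kif5c was at 15.61 on homogenate mimic 5, against 15.30 to 15.37. The other values were on synaptoneurosome mimic 5, one of the 3 arrays that stood apart, where Kif1c was at 9.69 against 10.40 to 10.65 and Dynll2 at 12.81 against 13.23 to 13.40.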

How the results depend on the processing

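Over the alternatives, the number of motor genes that passed between fractions was between 17 and 32 in control rats (main 23) and between 23 and 38 in mimic rats (main 29). The mimic comparisons and their difference stayed at 0. Leaving out 1 array gave 19 to 25 and 25 to 29. In 17 of 23 genes in control and 24 of 29 in mimic rats the call held without any 1 array. With the replicate number as a block, which may pair the fractions, 24 (9 higher, 15 lower) and 27 (10 higher, 17 lower) passed. Of the calls it changed, the one not given with its gene was a gain of Kif15 in mimic rats (0.17).

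Over all tested motor genes, the values that turned and passed before or after were, without the 3 arrays that stood apart, Dync1h1 in control rats (−0.37, and −0.36 with the block as well, an alternative chosen after seeing the data) and Kif13a in control rats (0.19, adjusted p = 0.049). Kif21b in control rats turned to 0.27 under that same added alternative (adjusted p = 0.0448). With equal array medians Kif17 in mimic rats turned to 0.02 (adjusted p = 0.888), Kif27 to 0.15 in control and 0.16 in mimic rats, and Kif18a to 0.20 in mimic rats. Equal medians move all synaptoneurosome differences up by construction; for Dync1h1, Kif13a and Kif21b the cause was not tested. Differences of dim genes are limited by signal near background.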

Other observations

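Of the 12 motor genes left out as dim (Dynll1l, Dynlt4, Kif12, Kif14, Kif18b, Kif20a, Kif22, Kif28p, Kif2b, Kif2c, Kif4b and Kifc1), all array values lay between 3.58 and 5.19. In a fit without the filter 4 of them were higher in synaptoneurosomes of control rats and 5 in mimic rats, and none lower. The microtubule depolymerase Kif2b differed by 0.24 ± 0.08 (adjusted p = 0.0347) and 0.37 ± 0.08 (adjusted p = 0.00179), and Kif2c by 0.17 ± 0.06 and 0.21 ± 0.06. With these, 27 and 34 of 68 motor genes passed. The share of all genes that passed in this fit is not given here, so these counts are not a result about the motor genes.

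Dynll1, its pseudogene Dynll1l1 and Dynlrb1 were high on the same arrays. Homogenate mimic 4 was the highest of its group for Dynll1 (12.02), Dynll1l1 (14.16) and Dynlrb1 (11.10). Among synaptoneurosome control arrays, numbers 2 and 5 were the highest pair for all 3 genes, at 10.47 and 11.15 for Dynll1, 12.44 and 13.14 for Dynll1l1, and 10.77 and 10.67 for Dynlrb1. The arrays were not described by any label that sets them apart, and these values were picked after they were seen.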
